A study of Mus musculus with 16 samples.

Results

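The genes described are 10 members of 2 families that handle long-chain fatty acids inside fat cells and at their membranes: the fatty acid binding proteins Fabp1, Fabp3, Fabp4 and Fabp5, and the fatty acid transport proteins Slc27a1 to Slc27a6. They were chosen by name, as the rows of a count table of 46078 Ensembl gene identifiers that an annotation assigns to these symbols, and each symbol matched 1 row. The question was which members each fat depot used and which of them changed with housing in the cold. All 16 mouse libraries held poly(A)-selected RNA and were labelled as from female wild-type C57BL/6 mice aged 16 weeks, bred and weaned at 30 °C and without food for 2 to 3 h before collection. BAT_5C was brown adipose tissue (BAT) of mice that, from an age of 10 to 12 weeks, were kept first at 18 °C (2 weeks) and next at 5 °C (3 weeks). BAT_30C was brown fat of mice that never left 30 °C. WAT_5C and WAT_30C were inguinal white adipose tissue (WAT), a fat depot under the skin, of mice housed in the same 2 ways. Each group had 4 libraries.

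Fatty acid binding proteins are small cytosolic proteins that hold a fatty acid in a closed pocket and carry it between membranes, lipid droplets, mitochondria and the nucleus. Fatty acid transport proteins are membrane proteins of the plasma membrane, endoplasmic reticulum or peroxisome that promote fatty acid uptake and join long and very long chain fatty acids to coenzyme A. Brown fat takes up and burns fatty acids to make heat, while white fat stores and releases them. Fabp4 is the abundant binding protein of adipocytes, Fabp5 its neighbour on chromosome 3 that is also made in skin and macrophages, Fabp3 the form of heart, muscle and brown fat, and Fabp1 the form of liver and intestine. Slc27a1 is the transport protein of fat and muscle, Slc27a2 a very long chain acyl-CoA synthetase of liver and kidney, and Slc27a4 an acyl-CoA synthetase of skin and intestine. Slc27a3 has acyl-CoA synthetase activity, Slc27a5 joins bile acids to coenzyme A in liver, and Slc27a6 is known from human heart.

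Depth ran from 54264023 to 71289020 counts per library. Levels are CPM, the counts of a gene relative to the library size after scaling by trimmed mean of M-values (TMM), and group values are mean ± SD over 4 libraries. Taking library totals in place of TMM shifted the median gene by -0.38 for cold in BAT, by -0.25 for cold in WAT, by -0.93 between tissues at 5 °C and by -0.85 at 30 °C, all on the log2 scale. The summed level of 8 brown adipocyte markers was 21478 to 24164 CPM in BAT_5C, 5166 to 8771 CPM in BAT_30C, 158 to 1081 CPM in WAT_5C and 43.4 to 89.0 CPM in WAT_30C. The labels call the brown fat depot inguinal, and in 4 of the 8 BAT libraries (2 of each temperature) they disagree, since the source name holds the other temperature while title and housing, used here, match. The WAT_5C library numbered 1 went against its female label, with 3 Xist counts against 11136 to 88934 in the other 15, 17183 counts of 4 genes of the Y chromosome (at most 45 elsewhere), and 14.9 CPM over 14 mammary epithelium markers against 1329 to 1389 CPM in the other WAT_5C libraries. Comparisons that use WAT_5C are therefore given with and without it. Whether each library is a different mouse is not in the labels, so p-values measure the spread between libraries.

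Brown fat expressed 7 of the 10 members at 1 CPM or more in every library, and Fabp4 led by far. Levels of different genes are compared as mean CPM per kilobase of the principal transcript. In BAT_5C these levels were 9169 for Fabp4, 571.5 for Fabp3, 213 for Slc27a1, 204 for Fabp5, 74.3 for Slc27a2, 15.2 for Slc27a4 and 1.57 for Slc27a3. In BAT_30C they were 7399 for Fabp4, 714 for Fabp3, 118 for Slc27a1, 70.2 for Fabp5, 69.7 for Slc27a2, 10.2 for Slc27a4 and 1.34 for Slc27a3. The libraries of Slc27a1 and Fabp5 overlapped in BAT_5C, and those of Fabp5 and Slc27a2 overlapped in BAT_30C, so the order within each of those pairs was not beyond their spread.

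White fat had another order, with Fabp4, Slc27a1 and Fabp5 ahead and Fabp3 and Slc27a2 low. In WAT_5C the mean CPM per kilobase of the principal transcript was 5775 for Fabp4, 271 for Slc27a1, 249 for Fabp5, 9.28 for Slc27a4, 8.16 for Fabp3, 2.37 for Slc27a3 and 1.07 for Slc27a2. In WAT_30C it was 2255 for Fabp4, 79.0 for Slc27a1, 52.1 for Fabp5, 6.43 for Slc27a4, 2.46 for Slc27a3, 1.54 for Fabp3 and 0.0208 for Slc27a2. With WAT_5C replicate 1 left out the WAT_5C means were 3762 for Fabp4, 237 for Slc27a1, 160 for Fabp5, 8.62 for Fabp3, 8.37 for Slc27a4, 2.62 for Slc27a3 and 1.13 for Slc27a2. The ranges of Slc27a1 and Fabp5 overlapped in both groups, although Slc27a1 was above Fabp5 within each WAT_30C library. Those of Slc27a3 and Fabp3 overlapped in WAT_30C. In WAT_5C the range of Fabp3 overlapped with those of Slc27a4, Slc27a3 and Slc27a2, and that of Slc27a3 with that of Slc27a2. Within each WAT_5C library Fabp3, Slc27a3 and Slc27a4 were all above Slc27a2, and Slc27a4 was above Slc27a3. The place of Fabp3 against Slc27a4 and Slc27a3 differed between libraries.

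**Figure D1:**
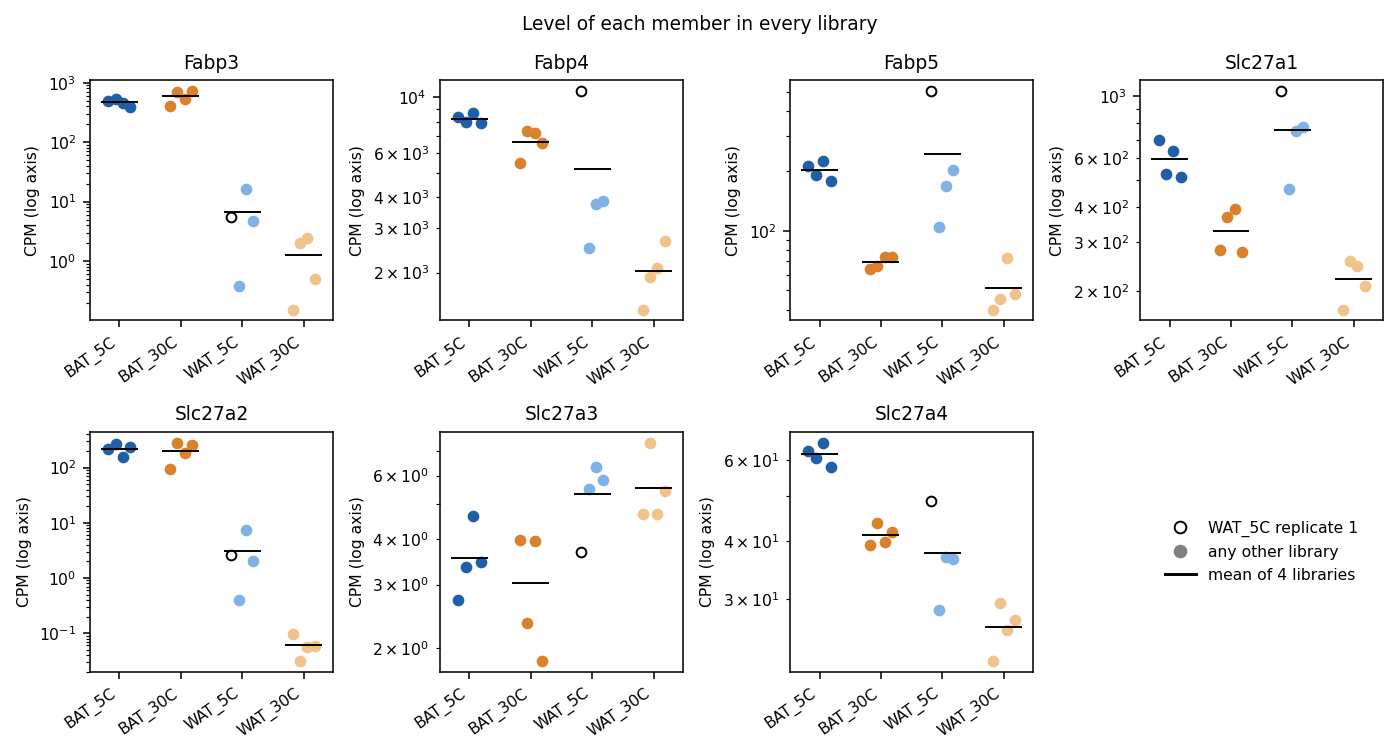
Level in CPM, on a log axis, of the 7 members at 1 CPM or more in every brown fat library, with 1 point per library, a line at the mean of 4 and an open circle for WAT_5C replicate 1. Fabp3 and Slc27a2 sit at 389 CPM or more and 92.6 CPM or more in every BAT library, and at 16.1 CPM or less and 7.46 CPM or less in every WAT library, while Fabp5 and Slc27a1 are higher at 5 °C in both tissues.

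The first comparison set brown against white fat at each temperature. Fabp3 and Slc27a2 were the members that marked brown fat. Fabp3 stood at 498, 537, 457 and 389 CPM in BAT_5C (replicates 1 to 4), against 5.57, 0.385, 16.1 and 4.77 CPM in WAT_5C. At 30 °C it stood at 401, 693, 539 and 719 CPM in BAT_30C, against 0.154, 1.98, 2.43 and 0.501 CPM in WAT_30C. All 8 BAT libraries were far above all 8 WAT libraries, and the WAT libraries spread widely among themselves. The log2 difference was 6.13 ± 0.93 at 5 °C (SE, edgeR quasi-likelihood F-test, Benjamini-Hochberg adjusted p = 3.32e-05) and 8.86 ± 1.06 at 30 °C (adjusted p = 3.45e-06). The difference at 5 °C was 6.04 ± 1.01 without WAT_5C replicate 1 (adjusted p = 6.82e-05), and 7.05 without WAT_5C replicate 3, the highest white fat library. Of the 50-base windows of Fabp3, 37.3% also occur in other genes, 29.2% in Fabp3-ps1, and it shares exon bases with 2 opposite-strand genes, so the part of its counts that belongs to them cannot be told apart. Fabp3-ps1 itself had 70 to 280 counts in BAT_5C, 110 to 198 in BAT_30C, 1 to 18 in WAT_5C and 1 to 4 in WAT_30C.

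Slc27a2 stood at 214, 262, 157 and 234 CPM in BAT_5C, against 2.66, 0.396, 7.46 and 2.03 CPM in WAT_5C. At 30 °C it stood at 92.6, 283, 186 and 252 CPM in BAT_30C, against 0.0961, 0.0314, 0.0558 and 0.0597 CPM in WAT_30C, the last from 3 to 10 counts per library. Every BAT library was again above every WAT library, and WAT_30C was close to no signal. The log2 difference was 6.11 ± 0.67 at 5 °C (edgeR adjusted p = 1.39e-06) and 11.65 ± 0.91 at 30 °C (adjusted p = 6.02e-08). At 5 °C it was 6.03 ± 0.74 without WAT_5C replicate 1 (adjusted p = 2.77e-06), and 7.02 without WAT_5C replicate 3. An opposite-strand RNA, Gm26697, overlaps 419 exon bases of Slc27a2. It had 25 to 44 counts in BAT_5C, 22 to 71 in BAT_30C, 0 to 3 in WAT_5C and 0 in WAT_30C.

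The 250 bases before the start sites of Fabp3 and Slc27a2 are shown because both genes were high in brown fat and low in white fat, with those of Slc27a4, which differed least between the tissues among the 3, for comparison. The sequences are from RefSeq (GRCm38.p6), on the plus strand, at chr4:130308488-130308737 for Fabp3, chr2:126552774-126553023 for Slc27a2 and chr2:29802384-29802633 for Slc27a4. Capitals mark AGGTCA or its reverse complement TGACCT, the hexamer that nuclear receptors of the PPAR and RXR family bind as a repeat.
Fabp3: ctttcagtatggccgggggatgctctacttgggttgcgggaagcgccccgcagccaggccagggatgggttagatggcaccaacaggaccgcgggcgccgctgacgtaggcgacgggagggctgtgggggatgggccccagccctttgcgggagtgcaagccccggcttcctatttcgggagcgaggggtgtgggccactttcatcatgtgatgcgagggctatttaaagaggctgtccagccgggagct
Slc27a2: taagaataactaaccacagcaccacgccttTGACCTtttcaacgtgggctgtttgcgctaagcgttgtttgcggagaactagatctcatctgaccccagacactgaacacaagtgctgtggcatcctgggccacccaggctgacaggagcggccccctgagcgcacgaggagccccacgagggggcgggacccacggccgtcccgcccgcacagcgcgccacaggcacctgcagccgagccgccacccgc
Slc27a4: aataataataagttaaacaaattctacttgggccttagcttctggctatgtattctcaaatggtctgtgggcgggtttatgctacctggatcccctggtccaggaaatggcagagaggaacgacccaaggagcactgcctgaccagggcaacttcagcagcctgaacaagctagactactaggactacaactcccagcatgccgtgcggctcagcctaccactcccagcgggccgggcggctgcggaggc

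The hexamer AGGTCA, searched on both strands, occurred 1 time in the Slc27a2 window, starting at base -220 from the start site. It occurred 0 times in the windows of Fabp3 and Slc27a4. The window of Fabp1, a member lower in brown than in white fat, held the hexamer 2 times, at bases -67 and -9. Those of Slc27a1 and Slc27a3 held it 0 times. Of 32851 windows of the same length before annotated mouse starts, 14% held it. A direct repeat of it with 1 base between the copies was in 0.0335% of all windows and in none of the 3 shown. TGACG, the core of a cyclic AMP response element, was present at base -149 of Fabp3 and in 17.8% of all windows. GC content was 64.8% for Fabp3, 64% for Slc27a2 and 54.4% for Slc27a4. A match is a description of the letters. Fabp4, Fabp5, Slc27a5 and Slc27a6 had no entry in the promoter table.

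The abundant members differed less between the tissues. Fabp4 averaged 8215 ± 358 CPM in BAT_5C and 5174.5 ± 3659.6 CPM in WAT_5C, a log2 difference of 0.67 ± 0.35 that did not pass the test (edgeR adjusted p = 0.0991). Without WAT_5C replicate 1, WAT_5C averaged 3371 ± 756 CPM and the difference was 1.27 ± 0.19 (adjusted p = 2.47e-05). At 30 °C Fabp4 was 1.71 ± 0.36 higher in BAT_30C than in WAT_30C (adjusted p = 0.000589), with 6629 ± 851 and 2020.5 ± 513 CPM. At 5 °C the sign depended on the scaling, since library totals gave -0.14. Fabp5 did not pass at either temperature, with log2 differences of -0.28 at 5 °C and 0.43 at 30 °C (adjusted p = 0.476 and 0.282). At 30 °C library totals turned the Fabp5 difference to -0.41, and without WAT_5C replicate 1 the difference at 5 °C was 0.34.

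Slc27a1 was 0.58 ± 0.21 higher on the log2 scale in BAT_30C than in WAT_30C (edgeR adjusted p = 0.0248), but -0.27 with library totals, and -0.35 at 5 °C without passing (adjusted p = 0.149; -0.17 without WAT_5C replicate 1, adjusted p = 0.421). The call at 30 °C ended when any of 4 libraries was left out, BAT_30C replicates 2 and 3 and WAT_30C replicates 1 and 4 (adjusted p = 0.0549 to 0.0792). Slc27a4 was 0.71 ± 0.13 higher in BAT_5C than in WAT_5C and 0.66 ± 0.13 higher in BAT_30C than in WAT_30C (adjusted p = 0.000160 and 0.000330), and library totals turned both to -0.19. At 5 °C it was 0.84 ± 0.10 without WAT_5C replicate 1 (adjusted p = 1.93e-06). The order of the tissues for these 2 genes thus changed with the scaling. Slc27a3 averaged 3.04 ± 1.10 CPM in BAT_30C and 5.56 ± 1.27 CPM in WAT_30C, a log2 difference of -0.87 ± 0.27 (adjusted p = 0.00906). At 5 °C it was -0.60 ± 0.27 (adjusted p = 0.0569), and -0.76 ± 0.26 without WAT_5C replicate 1 (adjusted p = 0.0157).

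Fabp1, Slc27a5 and Slc27a6 were near the limit of detection, and Fabp1 and Slc27a6 were lower in brown than in white fat. Fabp1 had 0 counts in all 4 BAT_5C libraries against 9, 95, 22 and 21 counts in WAT_5C, and 6, 0, 0 and 0 counts in BAT_30C against 29, 21, 24 and 11 in WAT_30C. Against a floor of 3 counts over the BAT_5C group, which is 0.0185 CPM, Fabp1 was at least 22.7-fold lower in BAT_5C than in WAT_5C, and at least 27.7-fold lower without WAT_5C replicate 1 (edgeR adjusted p = 0.00103 and 0.000527). WAT_5C replicate 2 carried most of this, and without it the bound was 11.5-fold (adjusted p = 0.00200). Such intervals and floors cover counting error only. At 30 °C the log2 difference of Fabp1 was -2.88 ± 1.01 (adjusted p = 0.0231), a call that ended without BAT_30C replicate 2, 3 or 4 (adjusted p = 0.0572 to 0.0599).

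Slc27a6 had 0, 7, 6 and 3 counts in BAT_5C against 11, 106, 88 and 87 in WAT_5C, and 6, 10, 6 and 11 counts in BAT_30C against 79, 90, 147 and 86 in WAT_30C. Its log2 difference was -3.10 ± 0.64 at 5 °C and -2.73 ± 0.59 at 30 °C (edgeR adjusted p = 0.000521 and 0.000829), and at 5 °C -3.44 ± 0.50 without WAT_5C replicate 1 (adjusted p = 1.54e-05). The groups did not overlap at either temperature, and WAT_5C replicate 1 was the lowest white fat library. Slc27a5 had 2 to 9 counts per library in BAT_5C, 1 to 16 in BAT_30C and 3 to 28 in WAT_30C, and in WAT_5C 1, 85, 5 and 3 counts, so 1 library held most of its signal there. Summed levels of 8 hepatocyte markers ran from 38.5 to 82.1 CPM in BAT_5C, 191 to 368 CPM in BAT_30C, 635 to 2048 CPM in WAT_5C and 346 to 688 CPM in WAT_30C. WAT_5C replicate 2, highest in Fabp1 and Slc27a5, had 638 CPM of them, within the range of the other libraries. Their part in the levels of Fabp1 and Slc27a5 was not tested.

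In all, 3 members were higher and 2 lower in BAT_5C than in WAT_5C among 10 tested, where 72.4% of 19481 genes were called changed, 31.8% higher and 40.5% lower. Without WAT_5C replicate 1, 4 were higher and 3 lower, where 76.2% of genes were called, 34% higher and 42.2% lower. In BAT_30C against WAT_30C 5 were higher and 3 lower, where 69.8% of genes were called, 34.5% higher and 35.3% lower. The groups did not overlap for 5 of 10 members at 5 °C (61.4% of all genes), for 7 of 10 without WAT_5C replicate 1 (76.8%) and for 8 of 10 at 30 °C (66.9%). The share of members called was near that of all genes, or below it at 5 °C.

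The second comparison asked how brown fat changed with cold. Fabp5, Slc27a1, Slc27a4 and Fabp4 rose, and the 2 members that mark brown fat did not pass the test. Fabp5 rose 2.91-fold. It stood at 211, 192, 226 and 178 CPM in BAT_5C, against 63.8, 66.0, 73.4 and 73.9 CPM in BAT_30C. Its groups were well apart, and the log2 fold change was 1.54 ± 0.08 (edgeR adjusted p = 5.46e-07). Up to 5.48% of its 50-base windows occur in other genes, most in the pseudogene Gm6166, which had 3 to 22 counts in the BAT libraries.

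Fabp4 changed little beside Fabp5. It stood at 8315, 7990.5, 8676 and 7879.5 CPM in BAT_5C, against 5455, 7329, 7175 and 6558 CPM in BAT_30C. The groups did not overlap, but the highest BAT_30C library came close to the lowest BAT_5C library. Its log2 fold change was 0.31 ± 0.10 (edgeR adjusted p = 0.0185). The call ended with library totals, which gave -0.065 (adjusted p = 0.472), with all 16 libraries in 1 fit (adjusted p = 0.504) and with only the BAT libraries whose labels all match (adjusted p = 0.219). The summed level of 6 adipocyte markers was 9096 to 10392 CPM in BAT_5C and 8163 to 9655 CPM in BAT_30C, and its part in the Fabp4 result was not tested. In tissue RNA, fewer cells of a type and less RNA per cell cannot be told apart.

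Fabp3 averaged 470.3 ± 63.3 CPM in BAT_5C and 588 ± 148 CPM in BAT_30C. The groups overlapped, since BAT_30C replicate 1, at 401 CPM, lay inside the range of BAT_5C. The log2 fold change was -0.32 ± 0.17 (edgeR adjusted p = 0.139). That difference was past the threshold with library totals (-0.69, adjusted p = 0.00497) and without BAT_30C replicate 1 (-0.45, adjusted p = 0.0154). BAT_30C replicate 1 was also the lowest of its group in brown adipocyte markers, at 5166 CPM against 6610 to 8771 CPM, and their part in the spread of Fabp3 was not tested.

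Among the transport proteins, Slc27a1 stood at 700.2, 527, 638 and 512 CPM in BAT_5C, against 282, 369, 394 and 277 CPM in BAT_30C. All cold libraries were above all warm ones. It rose 1.80-fold, a log2 fold change of 0.85 ± 0.14 (edgeR adjusted p = 0.000646). Slc27a4 stood at 62.6, 60.6, 65.3 and 57.9 CPM in BAT_5C, against 39.3, 43.8, 39.8 and 41.8 CPM in BAT_30C. Both groups were tight and apart, and it rose 1.5-fold (log2 0.58 ± 0.06, adjusted p = 1.79e-05).

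Slc27a2 averaged 217 ± 44.5 CPM in BAT_5C and 203 ± 84.3 CPM in BAT_30C, and its groups overlapped. The log2 fold change was 0.095 ± 0.30 (edgeR adjusted p = 0.804), a sign that library totals turned to -0.27. Within BAT_30C the 4 libraries had the same order in Slc27a2 as in the summed brown adipocyte markers, which were 5166, 8771, 6610 and 8449 CPM in replicates 1 to 4. Slc27a3 averaged 3.54 ± 0.80 CPM in BAT_5C and 3.04 ± 1.10 CPM in BAT_30C, a log2 fold change of 0.22 ± 0.28 (adjusted p = 0.510). Fabp1, Slc27a5 and Slc27a6 were too low to be tested in brown fat.

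Of the 7 members tested in brown fat, 4 rose and none fell, where 59.5% of 16213 genes were called changed, 29.2% higher and 30.3% lower. The median log2 fold change of the 7 was 0.31, beside -0.05 over all genes. Groups that did not overlap were seen for 4 of the 7 members tested, and for 55.1% of the 16213 genes tested. With library totals 3 of those 4 calls held their direction, and Fabp4 did not.

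The third comparison asked the same of inguinal white fat. Fabp5, Slc27a1 and Slc27a2 had every WAT_5C library above every WAT_30C library, with or without WAT_5C replicate 1. With all 8 libraries no member passed edgeR's test, where 0.0632% of 18975 genes were called. Unadjusted p was under 0.05 for 5 members and for 3430 genes. DESeq2 called 4 members (5.91% of genes) and a fit of all 16 libraries called 5 (8.15%), while DESeq2 without WAT_5C replicate 1 called 4 (12.3%). Without WAT_5C replicate 1 edgeR called 3 members, Fabp5, Slc27a1 and Slc27a2, all higher, where 2.11% of 19320 genes were called changed and 1.84% were called higher and 0.274% lower. The same 3 were called when WAT_5C replicate 2 was left out instead, where 273 of 19312 genes were called. With WAT_5C replicate 3 or 4 left out, 0 genes were called.

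Fabp5 stood at 507, 104, 169 and 202 CPM in WAT_5C, against 40.01, 45.4, 72.6 and 47.8 CPM in WAT_30C. Replicate 1 was the highest cold library by far, and the groups did not overlap with or without it. The log2 fold change was 2.22 ± 0.48 (edgeR adjusted p = 0.127), and 1.59 ± 0.26 without replicate 1 (adjusted p = 0.0290), a 3.00-fold rise. Fabp4 stood at 10585, 2499.6, 3757 and 3856 CPM in WAT_5C, against 1423.5, 1911, 2080.4 and 2667.5 CPM in WAT_30C. Its groups overlapped, and the log2 fold change was 1.33 ± 0.48 with all libraries (adjusted p = 0.235) and 0.70 ± 0.23 without replicate 1 (adjusted p = 0.133).

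The 4 WAT_5C libraries had the same order in Fabp4 as in the 6 adipocyte markers. Sums of those markers were 9488, 2630, 3805 and 3890 CPM in replicates 1 to 4 of WAT_5C, against 1822, 3153, 2573 and 2975 CPM in WAT_30C. In WAT_30C the orders differed, with replicate 4 highest in Fabp4 and replicate 2 highest in the markers. Of those markers 0 of 6 passed the test with or without replicate 1, and their part in the Fabp4 values was not tested. Summed levels of 12 macrophage markers, cells that also make Fabp4 and Fabp5, ran from 1001 to 2078 CPM in WAT_5C, 1503 to 2078 CPM without replicate 1, and 1166 to 1515 CPM in WAT_30C. Of these 0 of 12 passed the test.

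Fabp3 had wide groups that overlapped, with 5.57, 0.385, 16.1 and 4.77 CPM in WAT_5C against 0.154, 1.98, 2.43 and 0.501 CPM in WAT_30C. The log2 fold change was 2.37 ± 1.10 (edgeR adjusted p = 0.292), and 2.44 ± 1.13 without replicate 1 (adjusted p = 0.241). Skeletal muscle also makes Fabp3, and the sum of 13 muscle markers was 6209, 10.9, 83.1 and 213 CPM in WAT_5C, against 108, 2306, 9173 and 2045 CPM in WAT_30C. In WAT_30C the libraries had the same order in Fabp3 as in muscle markers. In WAT_5C they had instead the same order as the brown adipocyte markers, which summed to 976, 158, 1081 and 467 CPM. The part of either cell type in the Fabp3 values was not tested.

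**Figure D2:**
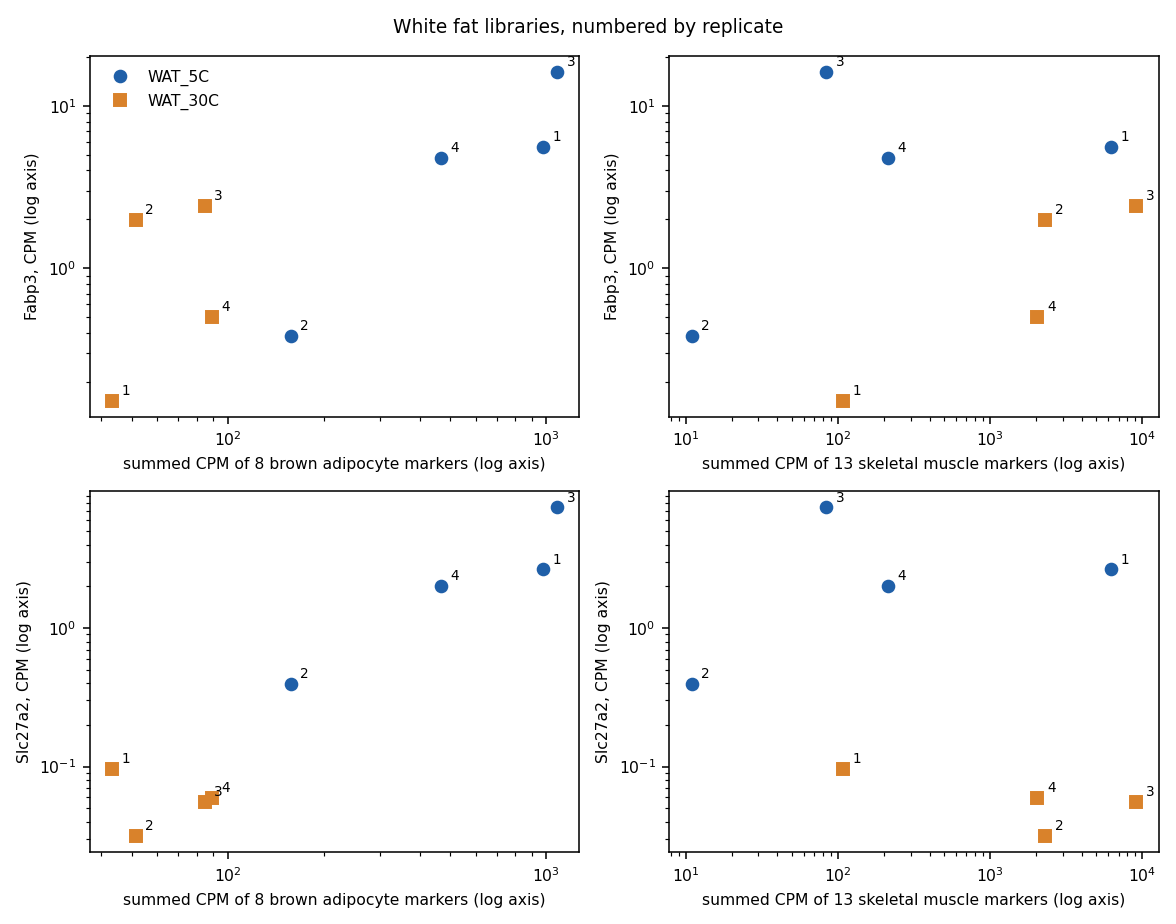
Levels of Fabp3 and Slc27a2 in CPM against the summed CPM of 8 brown adipocyte markers and of 13 skeletal muscle markers in the 8 white fat libraries, on log axes, with 1 point per library. WAT_5C libraries at 158 to 1081 CPM of brown adipocyte markers have 0.396 to 7.46 CPM of Slc27a2, and WAT_30C libraries at 43.4 to 89.0 CPM have 0.0961 CPM or less.

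Slc27a1 stood at 1044, 466, 749 and 776 CPM in WAT_5C, against 172, 256, 246 and 209 CPM in WAT_30C. Every cold library was well above every warm one. Its log2 fold change was 1.75 ± 0.26 (edgeR adjusted p = 0.0691), and 1.55 ± 0.21 without replicate 1 (adjusted p = 0.0178), a 2.93-fold rise. Slc27a2 had 166, 36, 628 and 184 counts in WAT_5C against 10, 3, 5 and 5 counts in WAT_30C. The lowest cold library was above the highest warm one, and the cold libraries spanned a wide range. Its log2 fold change was 5.61 ± 0.91 (adjusted p = 0.0745), and 5.67 ± 0.96 without replicate 1 (adjusted p = 0.0319), a 51.1-fold rise over a group of 3 to 10 counts per library. Without replicate 3, the highest cold library, the log2 fold change was 4.74 ± 0.71 and did not pass (adjusted p = 0.168). In that setting 0 of 19291 genes were called.

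The WAT_5C libraries had the same order in Slc27a2 as in brown adipocyte markers, replicates 3, 1, 4 and 2 from high to low. In WAT_30C, with 3 to 10 counts of Slc27a2 per library, replicate 1 was highest in Slc27a2 and lowest in these markers. Of the 8 brown adipocyte markers 1 rose with all libraries and 5 rose without replicate 1, and their part in the Slc27a2 result was not tested. Slc27a4 stood at 48.7, 28.3, 36.9 and 36.6 CPM in WAT_5C, against 22.0, 29.5, 25.7 and 27.1 CPM in WAT_30C. WAT_5C replicate 2 lay within the warm range. On the log2 scale the change was 0.50 ± 0.17 (edgeR adjusted p = 0.223), and 0.34 ± 0.13 without replicate 1 (adjusted p = 0.161).

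Slc27a3, Slc27a6, Fabp1 and Slc27a5 had overlapping groups in white fat. Slc27a3 averaged 5.35 ± 1.16 CPM in WAT_5C and 5.56 ± 1.27 CPM in WAT_30C, a log2 fold change of -0.08, and 0.05 without replicate 1. Slc27a6 averaged 0.836 ± 0.449 CPM in WAT_5C and 1.09 ± 0.38 CPM in WAT_30C, a log2 fold change of -0.41, and -0.08 without replicate 1. The log2 fold change was 0.89 for Fabp1 and 0.69 for Slc27a5 with all libraries, and 1.16 and 1.06 without replicate 1. The median over the 10 members was 1.11 in either case, beside -0.01 over all genes with all libraries and -0.02 without replicate 1. Groups that did not overlap were seen for 3 of 10 members, and for 13.7% of all genes, or 19% without replicate 1.

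**Figure D3:**
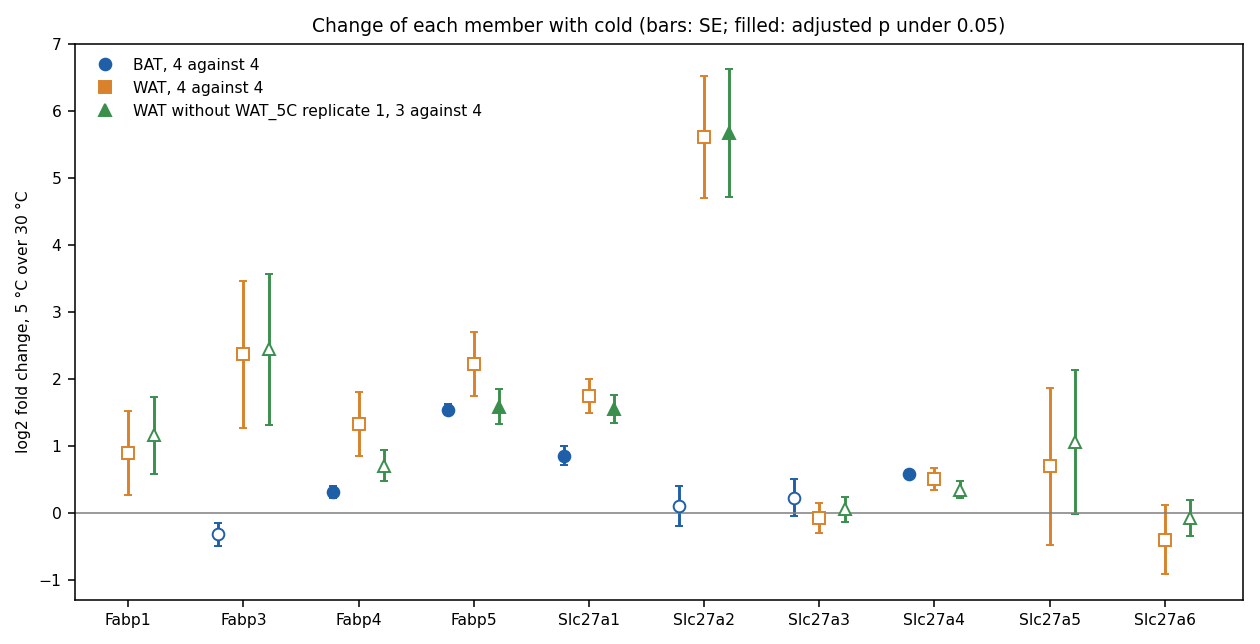
Log2 fold change of 5 °C over 30 °C for each tested member in brown fat, in white fat and in white fat without WAT_5C replicate 1, with bars for the SE and filled points for an adjusted p under 0.05. Filled points stand at 0.31 to 1.54 for 4 members in brown fat and at 1.55 to 5.67 for 3 members in white fat without replicate 1.

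Whether cold acted differently on the tissues was tested as the white fat effect minus the brown fat effect in 1 fit. Slc27a2 changed more in white fat, by 5.54 ± 0.98 on the log2 scale (edgeR adjusted p = 0.00119), by 5.55 ± 1.06 without WAT_5C replicate 1 (adjusted p = 0.00123) and by 4.63 without WAT_5C replicate 3 (adjusted p = 0.00133). Slc27a1 changed more in white fat by 0.93 ± 0.30 (adjusted p = 0.0403), a call that ended without replicate 1 (0.69 ± 0.26, adjusted p = 0.0572). It ended for 11 of the 16 libraries left out in turn (adjusted p = 0.0518 to 0.0853). Fabp5, which rose in brown fat, had a difference of 0.71 ± 0.49 (adjusted p = 0.335), and of 0.03 ± 0.28 without replicate 1 (adjusted p = 0.950). Fabp3 had 2.73 ± 1.10 (adjusted p = 0.0919), and 2.76 without replicate 1 (adjusted p = 0.0688). Fabp4 had 1.05 ± 0.49 (adjusted p = 0.150), and 0.38 ± 0.25 without replicate 1 (adjusted p = 0.268). Slc27a4 had -0.05 ± 0.18 (adjusted p = 0.875), and -0.25 ± 0.13 without replicate 1 (adjusted p = 0.178). Slc27a3 (-0.28), Slc27a5 (1.29) and Slc27a6 (0.37) did not pass either, with -0.18, 1.62 and 0.65 without replicate 1. Fabp1, at 0 counts in BAT_5C, has no size given here and did not pass (adjusted p = 0.179, and 0.127 without replicate 1). These were 2 of 10 members called, or 1 of 10 without replicate 1, where 20.8% and 31.3% of genes were called.

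The level of each member was then expressed as a share of its family, in CPM per kilobase of all annotated exons. Shares were compared by two-sided exact permutation tests over 70 relabellings, or 35 where replicate 1 was left out. The smallest p these tests can give is 0.0286, and p-values were adjusted over 40 tests. An adjusted p under 0.05 therefore needs many of the 40 tests to reach that smallest p together. Whether a given share passed thus depended on the other tests as well. Gene counts do not separate the transcripts of a gene, so the shares are between genes. The shares of a family add up to the whole, so a member that rises lowers the shares of the others. Tests within a family are therefore not independent. Among the binding proteins in brown fat Fabp4 came first and Fabp3 second. Fabp4 held 74.5 ± 2.41% of the Fabp family in BAT_5C and 67.1 ± 4.12% in BAT_30C, and Fabp3 23.2 ± 2.45% in BAT_5C and 32.0 ± 4.20% in BAT_30C (exact test, adjusted p = 0.0408 for both). Fabp5 held 2.30 ± 0.15% in BAT_5C and 0.892 ± 0.122% in BAT_30C (exact test, adjusted p = 0.0408).

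The annotated exons of Fabp4 and Fabp5 include retained-intron transcripts, which lengthen them to 4489 and 3567 bases against 896 and 987 bases for the principal transcripts. Per kilobase of the principal transcript Fabp3 held 5.75% in BAT_5C and 8.67% in BAT_30C, and Fabp5 2.05% in BAT_5C and 0.867% in BAT_30C (exact permutation test, adjusted p = 0.0457 for both). Fabp4 then held 92.2% in BAT_5C and 90.5% in BAT_30C and its difference no longer passed (exact test, adjusted p = 0.158). The ranks of the binding proteins were the same under either length.

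In white fat Fabp4 held nearly the whole family. Its share was 93.6 ± 0.93% in WAT_5C and 96.4 ± 1.04% in WAT_30C, while Fabp5 held 5.50 ± 0.52% in WAT_5C and 3.17 ± 0.84% in WAT_30C (exact permutation test, adjusted p = 0.0408 for both). Without WAT_5C replicate 1 these shares were 93.5% and 5.44% in WAT_5C and no longer passed (exact test, adjusted p = 0.0788). The groups did not overlap with or without it. Fabp4 ran from 92.5 to 94.6% in WAT_5C and from 95.1 to 97.7% in WAT_30C. Fabp5 ran from 4.95 to 6.14% in WAT_5C and from 2.20 to 4.18% in WAT_30C. Fabp3 held 0.786% in WAT_5C and 0.327% in WAT_30C.

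Slc27a1 and Slc27a2 held most of the Slc27 family in brown fat, in proportions that depended on the gene length used. Slc27a1 held 58.1 ± 6.69% of the Slc27 family in BAT_5C and 47.7 ± 9.18% in BAT_30C, and Slc27a2 33.1 ± 7.0% in BAT_5C and 43.1 ± 11.1% in BAT_30C. Neither difference passed (exact permutation test, adjusted p = 0.190 and 0.258). Slc27a4 held about 8.0% in both groups. The annotated exons of Slc27a1 cover 5835 bases, against 2795 for its principal transcript. Per kilobase of the principal transcript Slc27a1 held 69.8% in BAT_5C and 60.0% in BAT_30C. On that length Slc27a2 held 24.7% in BAT_5C and 33.9% in BAT_30C. Per kilobase of all exons Slc27a2 was above Slc27a1 in BAT_30C replicates 2 and 4, but not per kilobase of the principal transcript. Slc27a6 held 0.0222 ± 0.0169% in BAT_5C and 0.0546 ± 0.0163% in BAT_30C (exact test, adjusted p = 0.0408), from 0 to 11 counts per library.

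In white fat Slc27a1 held most of the family, and more of it at 5 °C. Slc27a1 held 91.3 ± 1.64% of the family in WAT_5C and 81.4 ± 1.38% in WAT_30C (exact permutation test, adjusted p = 0.0408), with every cold library between 89.3 and 93.1% and every warm one between 80.3 and 83.3%. The share of Slc27a4 was 6.14 ± 0.70% in WAT_5C and 12.8 ± 1.08% in WAT_30C, and that of Slc27a3 1.62 ± 0.68% in WAT_5C and 4.67 ± 0.75% in WAT_30C (exact test, adjusted p = 0.0408 for both). Their levels did not fall likewise, with log2 fold changes of 0.50 for Slc27a4 and -0.08 for Slc27a3, neither of which passed. Slc27a2 held 0.565 ± 0.570% in WAT_5C and 0.0376 ± 0.0230% in WAT_30C (exact test, adjusted p = 0.0408). Slc27a6 held 0.281 ± 0.20% in WAT_5C and 0.942 ± 0.258% in WAT_30C (exact test, adjusted p = 0.0408). Without replicate 1 these 5 differences still passed (exact test, adjusted p = 0.0423), with 90.7% for Slc27a1 in WAT_5C. Per kilobase of the principal transcript the share of Slc27a1 was 95.2% in WAT_5C and 89.3% in WAT_30C (exact test, adjusted p = 0.0457).

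Between the tissues, Fabp3 held 23.2% of its family in BAT_5C and 0.786% in WAT_5C, and 32.0% in BAT_30C and 0.327% in WAT_30C. Slc27a2 held 33.1% in BAT_5C and 0.565% in WAT_5C, and 43.1% in BAT_30C and 0.0376% in WAT_30C. Slc27a1 went the other way, with 58.1% in BAT_5C and 91.3% in WAT_5C, and 47.7% in BAT_30C and 81.4% in WAT_30C. All 6 of these differences passed (exact permutation test, adjusted p = 0.0408). With WAT_5C replicate 1 left out the WAT_5C shares were 0.959% for Fabp3, 0.631% for Slc27a2 and 90.7% for Slc27a1, and all 3 differences at 5 °C passed (exact permutation test, adjusted p = 0.0423).

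**Figure D4:**
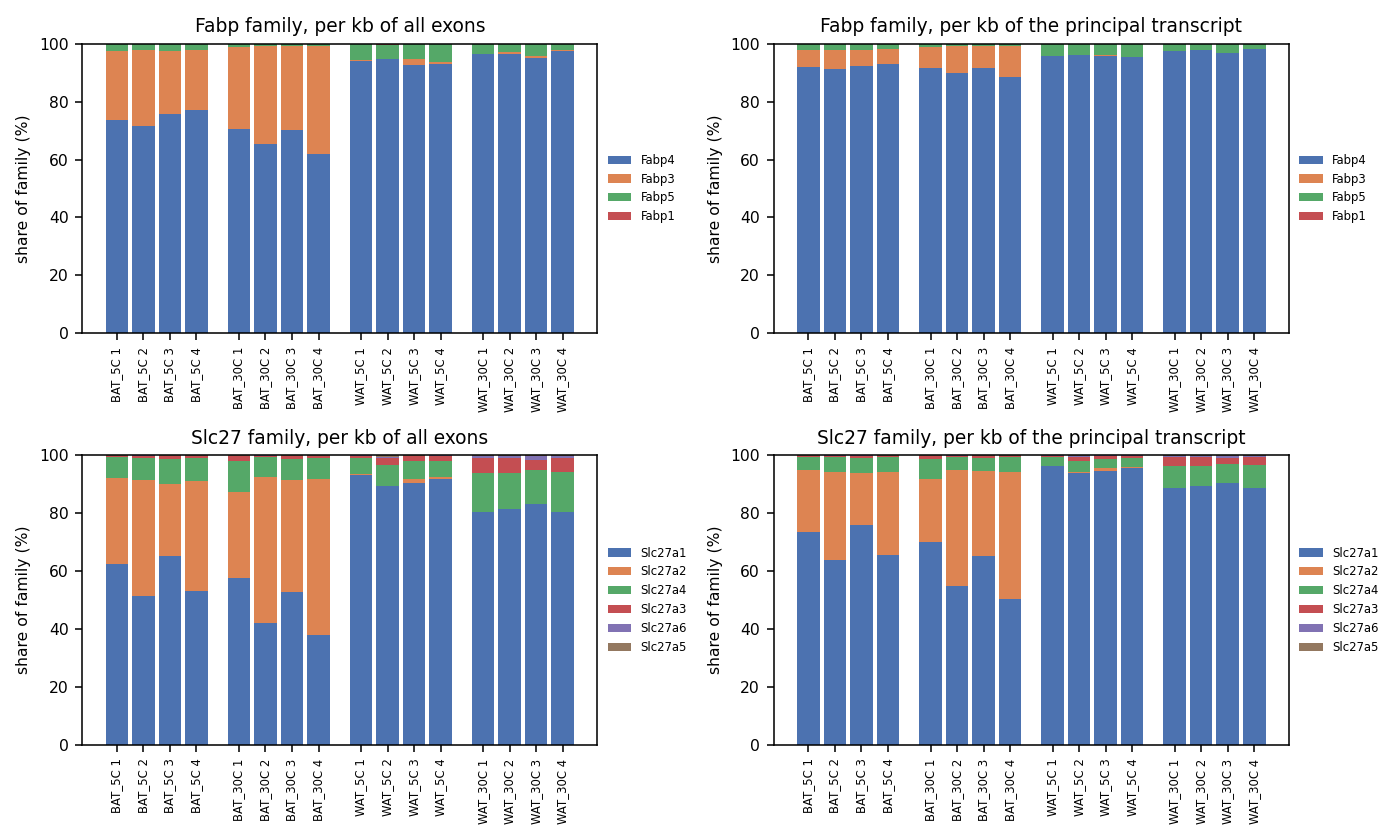
Share of each member in the CPM per kilobase of its family, as stacked bars to 100% with 1 bar per library, for the Fabp and the Slc27 family, per kilobase of all exons and of the principal transcript. Fabp3 and Slc27a2 take 23.2% and 33.1% on average per kilobase of all exons in BAT_5C and 0.786% and 0.565% in WAT_5C.

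The whole Fabp family took 0.527 to 0.601% of all counts in BAT_5C, 0.521 to 0.658% in BAT_30C, 0.377 to 1.04% in WAT_5C and 0.230 to 0.396% in WAT_30C. The Slc27 family took 0.0504 to 0.0638% in BAT_5C, 0.0367 to 0.0563% in BAT_30C, 0.0727 to 0.105% in WAT_5C and 0.0314 to 0.0455% in WAT_30C. On these library totals WAT_5C had the highest Slc27 share, without overlap, but not after TMM scaling. The summed Slc27 level was then 808 to 979.8 CPM in BAT_5C, 418 to 698 CPM in BAT_30C, 502 to 1099 CPM in WAT_5C and 200.2 to 294 CPM in WAT_30C.

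Fatty acids reach these proteins through lipases and other membrane carriers, and leave them as acyl-CoA. Of 12 uptake partners in brown fat, 3 rose and 6 fell, with a median log2 fold change of -0.27 beside -0.05 over all genes, of which 29.2% rose and 30.3% fell. With library totals 2 rose and 9 fell. Mfsd2a, a lysophospholipid transporter, averaged 9.97 ± 5.52 CPM in BAT_5C and 0.0765 ± 0.0534 CPM in BAT_30C (log2 6.96 ± 0.60, edgeR adjusted p = 8.70e-06). Lpl, the lipase that frees fatty acids from lipoproteins, averaged 6448 ± 553 CPM in BAT_5C and 3546 ± 248 CPM in BAT_30C (log2 0.86 ± 0.08, adjusted p = 1.73e-05). Cav2, a protein of caveolae, fell by 0.74 on the log2 scale (adjusted p = 1.13e-05). Cd36, the main fatty acid carrier of adipocytes, averaged 3016 ± 105 CPM in BAT_5C and 2921 ± 160 CPM in BAT_30C and did not pass (log2 0.05, adjusted p = 0.547), nor did Cavin2 (-0.10) or Got2 (-0.03).

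Of 10 tested genes of acyl-CoA synthesis and binding in brown fat, 9 rose and 0 fell (29.2% and 30.3% of all genes), with a median log2 fold change of 0.69, and with library totals 6 rose and 0 fell. Acsl5, a long chain acyl-CoA synthetase, averaged 2244.5 ± 185 CPM in BAT_5C and 66.8 ± 5.83 CPM in BAT_30C (log2 5.07 ± 0.10, edgeR adjusted p = 1.23e-08). Acsl3, another such synthetase, averaged 113 ± 7.98 CPM in BAT_5C and 17.4 ± 1.83 CPM in BAT_30C (log2 2.69 ± 0.09, adjusted p = 3.24e-08). Dbi, the acyl-CoA binding protein, rose by 1.34 ± 0.08 (adjusted p = 1.19e-06), and Acsbg1 did not pass (0.55, adjusted p = 0.279). These changes of Acsl5 and Acsl3 were larger than that of any member of the Fabp or Slc27 family tested in brown fat.

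Of 13 tested peroxisomal genes for very long chain acyl-CoA in brown fat, 9 rose and 3 fell (29.2% and 30.3% of all genes), also with library totals, and the median log2 fold change was 0.94. Scp2, a sterol carrier and thiolase, averaged 1843 ± 79.1 CPM in BAT_5C and 753 ± 43.8 CPM in BAT_30C (log2 1.29 ± 0.07, edgeR adjusted p = 3.83e-07). The oxidase Acox2 rose by 4.18 ± 0.28 and the racemase Amacr by 0.94 ± 0.06 (adjusted p = 1.80e-06 and 1.79e-06). The 3 that fell, named after their values were seen, were Abcd2 (-1.16), Phyh (-0.21) and Acox3 (-0.19), and Pex5 did not pass (0.14).

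Of 8 PPAR receptors and partners in brown fat, Ppard (0.97 ± 0.07) and Rxrb (0.40 ± 0.08) rose and Ppara fell by 1.19 on the log2 scale (edgeR adjusted p = 3.02e-06, 0.00178 and 0.00787). These 3 of 8 called stand beside 59.5% of all genes, and with library totals 1 rose and 3 fell. Pparg, the receptor known to activate Fabp4 in adipocytes, was at -0.01 (adjusted p = 0.947). Vegfb, a growth factor known from mouse endothelium to act on Slc27 genes, fell by 0.50 (adjusted p = 0.000242), and its receptors Flt1 and Nrp1 rose by 0.28 and 0.23 (adjusted p = 0.00592 and 0.0411), but with library totals neither receptor was called. Among other intracellular lipid-binding proteins in brown fat, Fabp7 (-0.80, adjusted p = 0.0835) and Rbp7 (0.32, adjusted p = 0.302) did not pass. Endothelial markers, cells that also carry fatty acids into fat, summed to 1584 to 1680 CPM in BAT_5C and 1586 to 1944 CPM in BAT_30C.

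**Figure D5:**
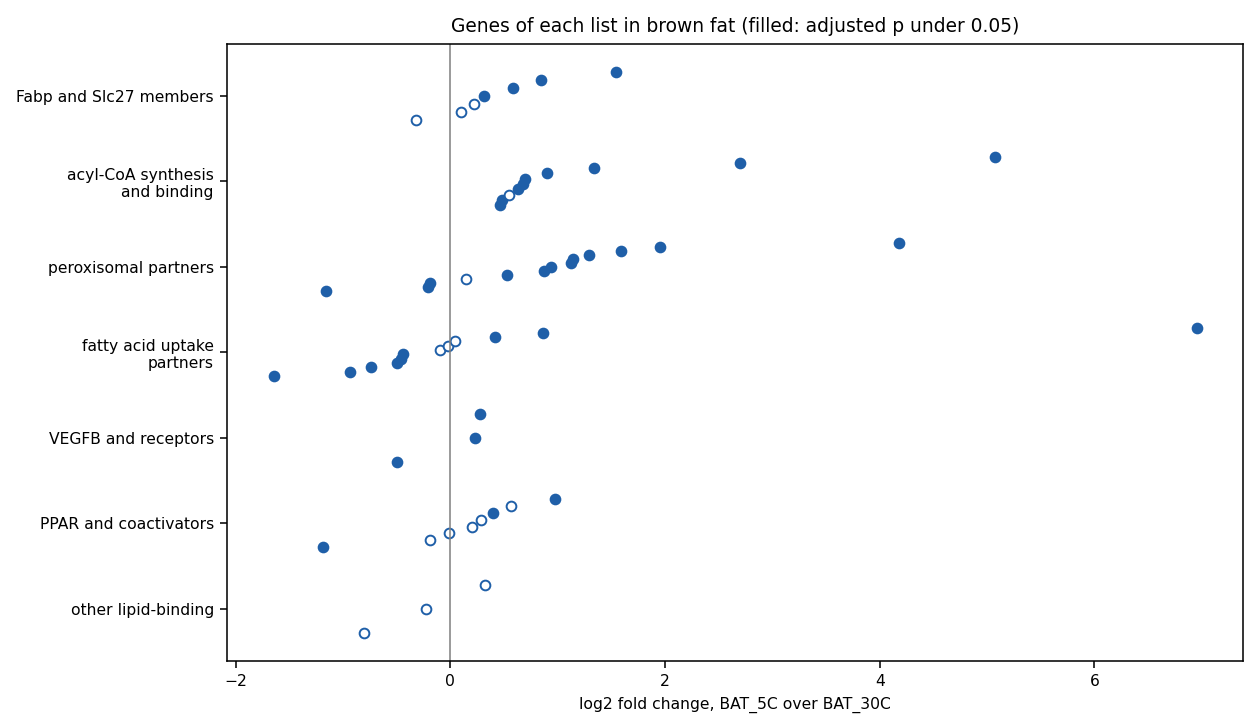
Log2 fold change of BAT_5C over BAT_30C for the members and for each tested gene of 6 lists of related genes, with 1 point per gene and filled points for an adjusted p under 0.05. The members span -0.32 to 1.54, while Acsl5 reaches 5.07 and Mfsd2a 6.96.

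In white fat 0 genes of these 6 lists passed edgeR's test with all 8 libraries. Without WAT_5C replicate 1, where 2.11% of all genes were called, 4 of 13 peroxisomal genes rose, with Acox2 (2.96, adjusted p = 0.0145), Abcd3 (1.08, adjusted p = 0.0275) and Pex5 (0.46, adjusted p = 0.0432) first. Acsl1 (1.26, adjusted p = 0.0312) and Acsbg1 (0.76, adjusted p = 0.0464) rose among 11 genes of acyl-CoA synthesis and binding. None of the 12 uptake partners passed there, with Cd36 at 0.09 (adjusted p = 0.847) and Lpl at 0.14 (adjusted p = 0.746). Acsl5, so much higher in cold brown fat, was at 0.55 in white fat without replicate 1 (adjusted p = 0.156), and its white fat effect minus its brown fat effect was -4.55 over all libraries and passed.

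Genes whose profile over the 16 libraries was most like that of a member were found by the root mean square difference of centred log2 CPM, over 15886 named genes. For Fabp4 they were Lipe, the hormone-sensitive lipase, and Adipor2, an adiponectin receptor, at 0.186 and 0.21. For Fabp5 they were Aldh1a7 (0.244) and Tmem120b (0.324), and for Slc27a1 Pcx, the mitochondrial pyruvate carboxylase (0.26), and the prostaglandin receptor Ptger3 (0.309). Slc27a4 was followed most closely, by Tpp1 (0.0911) and Napa (0.0934). For Slc27a3 they were Tril (0.236) and Spc24 (0.252), and for Slc27a6 Arhgef4 (0.413) and Stx11 (0.481). Larger values were found for the most variable members: Kng2 (1.21) and the muscle and brown fat subunit Cox7a1 (1.25) for Fabp3, and Cpn2 (1.08) and the lipid droplet protein Cidea (1.10) for Slc27a2. The measure is not scaled to the spread of a member about its own mean. That root mean square was 4.36 for Fabp3, 4.80 for Slc27a2 and 0.474 for Slc27a4. Fabp1 was nearest to Hamp (0.461) and Dlg2 (0.557), and Slc27a5 to Rbm42 (0.838) and Hpx (0.9). These libraries share tissue and temperature, and the values are descriptions.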

How the data were processed

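The authors deposited 1 table of raw counts per Ensembl gene identifier, with 16 library columns of whole numbers. Reads were trimmed with Trim Galore and aligned with TopHat, tools named without versions per the submitters' processing notes. Genome build, annotation, counting program and strand setting (not given in the sources used here) are unknown, so reads of overlapping or antisense genes cannot be told apart. Symbols, transcript lengths and exon overlaps came from the GENCODE vM21 mouse annotation matched by identifier, which left 935 of 46078 identifiers unnamed (0.0403 to 0.117% of counts).

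Counts were scaled by TMM, filtered with filterByExpr (minimum count 10, total 15) and tested by quasi-likelihood F-test in edgeR 4.0.16 under R 4.3.3, with Benjamini-Hochberg adjustment over all genes tested and a threshold of 0.05. Every adjusted p in the text is from this fit unless a sentence names another test. Each tissue was fitted apart for cold, and all 16 libraries together for tissue differences and for the difference of cold effects. Each SE was taken as the size of the log2 fold change divided by the root of its F statistic. Family shares were tested by exact permutation in Python 3.11.15 with NumPy 2.4.6, and adjusted with statsmodels 0.14.6. Alternatives were DESeq2 1.42.0, RLE size factors, library totals, no filter, a threshold of 0.01, each library left out, a replicate block, other gene lengths and 1 joint fit. Combinations with WAT_5C replicate 1 left out and the principal transcript length were added after seeing the data. The fits were tested on simulated data with 200 changed genes.

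The text names all 10 members in every test of fold change or says why not, the family shares of members picked after their values were seen, up to 3 genes per list with the smallest adjusted p, listed genes that did not pass, and the 2 named genes most like each member. A listed gene is not reported here. Members and lists were chosen with earlier results of these data known. No 2 libraries of a group were alike within counting error: over 24 such pairs the chi-square per degree of freedom was at least 19.9.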

Additional observations from a re-analysis of the deposited data

Results flagged for a closer look

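Fabp1 in BAT_30C stood out because replicate 1 held all 6 counts of the group (0.111 CPM) and the other 3 libraries held 0, so its gap to the nearest library was the whole range of the group (ratio 1.0). Slc27a6 in WAT_5C stood out because replicate 1, with 11 counts (0.176 CPM), lay far below the other libraries. On log2 CPM, the scale used for these ratios, the gap was 0.891 of the range of the group. Chance alone gives such a ratio in about 1 in 20 groups of normally distributed values. The ratio was taken for each of the 10 members in each of the 4 groups, so some such ratios are expected by chance. For Fabp1 the 3 tied libraries at 0 counts leave no other ratio than 1.0, so that rate does not apply to it.

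The effect of cold differed between the tissues for 2 members, by a test of the difference itself. It was larger in white than in brown fat by 5.54 on the log2 scale for Slc27a2 and by 0.93 for Slc27a1, and the Slc27a1 call ended when 11 of the 16 libraries, WAT_5C replicate 1 among them, were left out in turn.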

How the results depend on the processing

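Of the values of single members recomputed under other settings, 1074 kept direction and side of the threshold, 49 gained a call, 63 lost one and 31 reversed. The cause was not tested for any of them. Settings that combine another scaling or tool with leaving out WAT_5C replicate 1, and the principal transcript length, were chosen after seeing the data. In WAT 12 genes and 0 members were called for cold. Library totals gave 82 genes and 1 member, no filter 25 genes, DESeq2 1122 genes and 4 members, and 1 fit of 16 libraries 1587 genes and 5 members, while a threshold of 0.01 and the replicate block gave 0 genes each. With WAT_5C replicate 1 left out the counts were 408 genes and 3 members with edgeR, 438 and 3 with RLE size factors, 313 and 3 with library totals, and 2379 and 4 with DESeq2. Leaving out each library in turn gave 0 to 408 genes and 0 to 3 members. In BAT the libraries whose labels all match gave 6058 genes against 9647.

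For the difference of cold effects, 4055 genes and 2 members were called. The count was 2109 genes and 1 member at a threshold of 0.01, and 1 member with RLE size factors, with or without WAT_5C replicate 1. Without that replicate it was 6209 genes with RLE size factors, 7043 with DESeq2, and 6933 genes and 4 members with library totals. Leaving out each library gave 3221 to 6222 genes and 1 to 3 members. Between tissues at 5 °C library totals without WAT_5C replicate 1 called 8 members, against 5, and leaving out each library 5 to 7. Shares past the threshold numbered 0 to 4 for cold in BAT and 0 to 9 between tissues at 5 °C when each library was left out, against 4 and 8 with all libraries. They numbered 5 to 7 for cold in WAT and 7 to 8 between tissues at 30 °C, against 7 and 9. A share passes only when many of the 40 tests reach the smallest possible p, so these counts can drop to 0 together. They do not measure the size of the share differences.

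These log2 values reversed. With library totals cold in BAT gave -0.065 for Fabp4, -0.27 for Slc27a2 and -0.17 for Slc27a3. Between the tissues library totals gave -0.14 for Fabp4 and -0.19 for Slc27a4 at 5 °C (-0.18 for Slc27a4 without WAT_5C replicate 1), and at 30 °C -0.41 for Fabp5, -0.27 for Slc27a1 and -0.19 for Slc27a4, with or without that replicate. Without WAT_5C replicate 1, Slc27a3 gave 0.058 for cold in WAT with RLE size factors or DESeq2 and 0.075 for the difference of cold effects with library totals. Fabp5 between tissues at 5 °C gave 0.34 with either tool. Leaving out each library gave -0.13 to 0.32 for Slc27a2 in BAT, and -0.17 to 0.089 for Slc27a3 in WAT. The difference of cold effects spanned -0.25 to 0.063 for Slc27a4 and -0.0039 to 0.74 for Slc27a6. Between tissues at 5 °C the range was -0.54 to 0.34 for Fabp5 and -1.80 to 1.54 for Slc27a5. The share difference of Slc27a4 in BAT was -0.181 percentage points with the longest transcript, -0.229 with the principal one, and -0.437 to 0.901 with each library left out.

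Deviations of libraries with equal replicate numbers correlated at -0.242 to 0.0852 in BAT and -0.456 to 0.00473 in WAT. They correlated at -0.238 to 0.0547 between BAT_30C and WAT_30C, and at 0.0108 to 0.287 between BAT_5C and WAT_5C. A correlation over 0.1 was taken to pair libraries, and only 2 of 4 pairs of BAT_5C and WAT_5C were over it. Whether both depots came from the same mice is not in the labels, and the tissue tests took the libraries as independent. With the replicate block 9091 genes and 4 members were called in BAT, 0 genes in WAT, and 3487 genes and 1 member for the difference of cold effects. Of 4 BAT_5C libraries, 2 correlated best with their own number. Depth limits Fabp1, Slc27a5 and Slc27a6, whose counts were too low in BAT to be tested for cold.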
